A study of Caenorhabditis elegans with 6 samples.

Results

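The proteasome subunit genes of *Caenorhabditis elegans* were taken as every gene in the deposited expression table whose name starts with pas-, pbs-, rpn- or rpt-. This rule, which uses names only, gave 33 of the 12798 listed genes and 130 of the 53267 listed merged exons. They are 7 pas genes, 7 pbs genes, 6 rpt genes and 13 rpn genes. The study modelled loss of SDHB-1, the iron-sulfur subunit of mitochondrial succinate dehydrogenase (complex II), and asked how a deletion and a point mutation of *sdhb-1* alter whole-animal expression. One RNA library was made from each of 6 groups of whole worms grown on OP50 bacteria at 20°C, so each group has 1 library and no difference between groups has a replicate check. The mutant groups were *gk165*, L2 larvae of genotype *sdhb-1(gk165)* that carry a deletion regarded as a null allele, and R244H, L4 larvae that carry an *sdhb-1* transgene with the R244H missense change. Per the paper, the *gk165* deletion also takes out part of the neighbouring gene *cup-15*. The R244H label reads *sdhb-1(gk165)/mIn1;R244H*, so a balancer chromosome is named in that genotype. Whether the RNA came from balanced or homozygous *gk165* animals is not given in the sources used here. The reference groups were WTR, L4 larvae labelled *sdhb-1(gk165);WTR* that carry the wild-type transgene in the same deletion background, and wild-type larvae of strain N2 at L2, L3 and L4 (WT in the plots). Both transgenes are driven by the *sdhb-1* promoter and were inserted on the X chromosome, and each is 1 line. The *gk165* animals arrest at L2, and they were set against wild-type L2, their stage match, and wild-type L3.

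The proteasome is the protease that removes proteins tagged with ubiquitin. Its barrel is built from outer rings of alpha subunits (pas genes), which gate the entrance, and inner rings of beta subunits (pbs genes), some of which carry the proteolytic sites. The regulatory particle that caps it has a base with a ring of ATPases (rpt genes), which unfold the substrate, and non-ATPase subunits (rpn genes) that recognise, deubiquitinate and position the substrate. All parts are needed in set proportions, and the genes are expressed in most cells of the worm.

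Levels are given in RPKM, reads per kilobase of listed exon scaled to library size, computed from the reads behind the deposited values, so they can be compared between genes of different length. Between 188742 and 867446 reads lay on listed exons per library, with 279254 in *gk165* and 405789 in R244H. The median subunit gene had 22.3 reads in *gk165*, 36.5 in R244H, 98.5 in WTR, 32.5 in wild-type L2, 92.0 in wild-type L3 and 139 in wild-type L4, which leaves rpn-6.2 out. Every log2 ratio below is of RPKM + 1 in the first library over the second, and its 95% interval is the exact binomial (Clopper-Pearson) interval of the reads. It covers counting error only and compares these libraries, not the conditions. The listed exons of the 33 genes cover 801 to 3176 bp in WBcel235 and lie on 5 chromosomes, 10 of the genes on chromosome I and 0 on X. The *gk165* library stood apart in where its reads lay. The 3′-most listed exon held 63.2% of the subunit genes' reads in *gk165*, against 47.5% in wild-type L2 and 44.2% in wild-type L3, so the medians of *gk165*, and a few single ratios, are given also from that exon alone and without it. Of the 33 genes, 11 are overlapped by another annotated gene: *pas-3*, *pas-7*, *pbs-3*, *pbs-4*, *pbs-7*, *rpn-7*, *rpn-9*, *rpn-10*, *rpn-11*, *rpt-2* and *rpt-6*. The overlap is on the same strand for *pbs-7* and on the opposite strand for the others. Whether counting used the strand is not given in the sources used here.

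The subunit genes held a smaller share of the RNA in both mutant libraries than in any of the 4 reference libraries. They took 0.294% of all reads in *gk165* (interval 0.274 to 0.315), against 0.590% in wild-type L2 and 0.527% in wild-type L3. In R244H they took 0.291% (0.275 to 0.308), against 0.624% in WTR and 0.547% in wild-type L4. The highest reference share was that of WTR, 0.624% (0.603 to 0.645), and the lowest that of wild-type L3, 0.527% (0.508 to 0.546), so the intervals of the mutants lay apart from those of every reference library. In bulk RNA of whole worms, fewer cells of a type and less RNA per cell cannot be told apart. All 4 parts of the particle had lower shares in the mutants. The alpha ring took 0.0773% in *gk165*, against 0.135% in wild-type L2 and 0.129% in wild-type L3, and 0.0702% in R244H, against 0.135% in WTR and 0.122% in wild-type L4. The beta ring took 0.0705% in *gk165*, against 0.154% in wild-type L2 and 0.146% in wild-type L3, and 0.0638% in R244H, against 0.149% in WTR and 0.138% in wild-type L4. These rings form the proteolytic barrel. For the ATPases the shares were 0.0534% in *gk165*, against 0.112% in wild-type L2 and 0.0927% in wild-type L3, and 0.0569% in R244H, against 0.117% in WTR and 0.0999% in wild-type L4. For the non-ATPases they were 0.0931% in *gk165*, against 0.189% in wild-type L2 and 0.159% in wild-type L3, and 0.1003% in R244H, against 0.223% in WTR and 0.187% in wild-type L4.

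**Figure D1:**
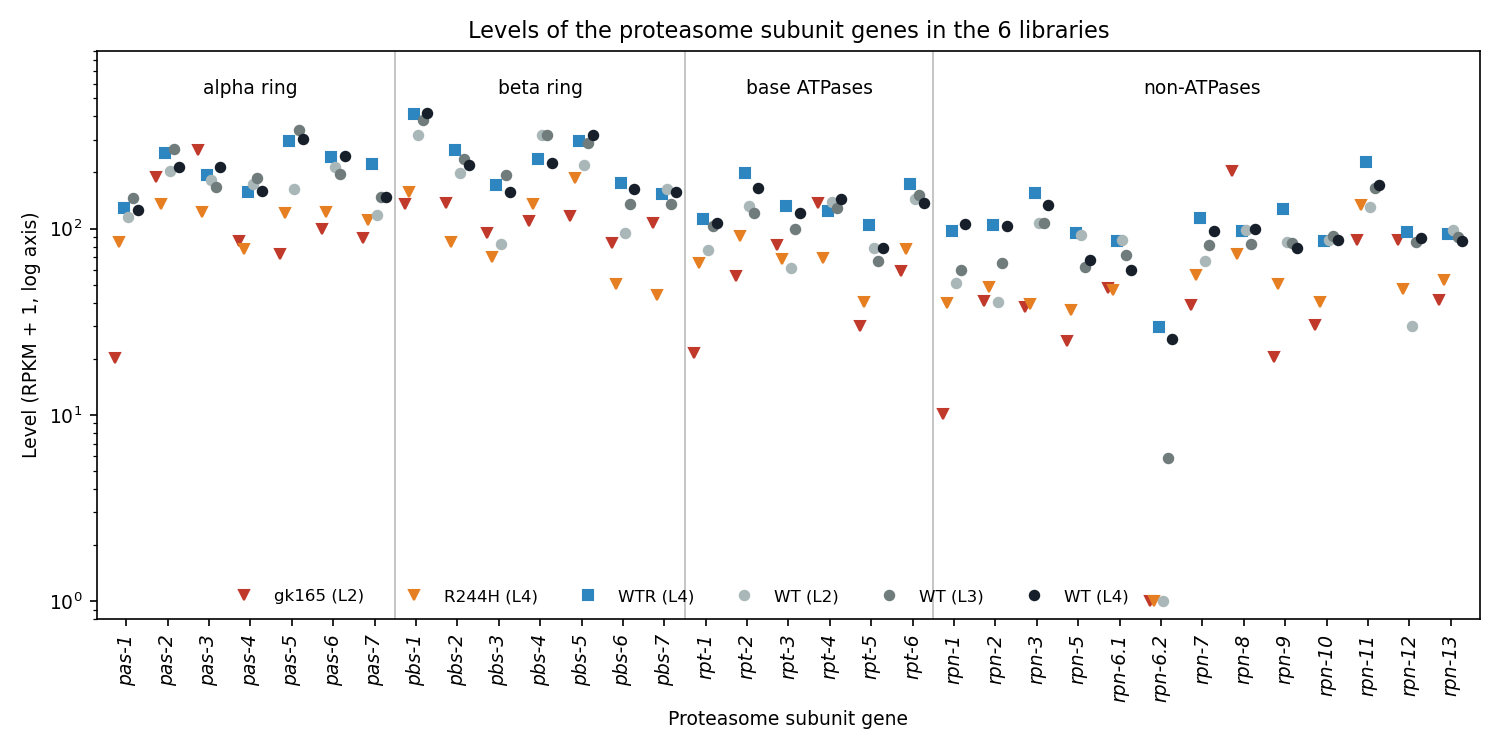
Level of each subunit gene in each library, as RPKM + 1 on a log axis, with the genes grouped by the part of the particle and 1 point per library. The triangles of *gk165* and R244H lie below the squares and circles of WTR and wild type for most genes, rpn-8 and pas-3 in *gk165* lie above them, and rpn-6.2 has points at RPKM 0 in *gk165*, R244H and wild-type L2.

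In R244H every subunit gene had a ratio below 0 to both L4 references. Most of all genes tested were below 0 too, since their median was below 0 in both comparisons. Over the 33 genes the ratio had a median of -0.89 to wild-type L4 and -1.03 to WTR, whereas the median of all genes was -0.33 and -0.30, so the subunit genes lay 0.56 and 0.73 below the bulk of genes. The sum of their levels was 2550 RPKM in R244H, against 5423 RPKM in WTR and 4986 RPKM in wild-type L4. A decrease of 2-fold or more was seen for 14 of the 33 genes relative to wild-type L4, when 33.8% of the 11901 genes tested had one, and for 19 relative to WTR, when 34.2% of 11818 genes had one. None (0) was at least 2-fold higher, a change seen for 17.8% and 21.9% of all genes in these comparisons. Shifting all ratios so that the median gene is at 0 gives 24.6% of genes at least 2-fold higher and 27.5% lower in R244H to wild-type L4, and 8 subunit genes lower. The counting interval lay below no change for 28 of the 33 genes to wild-type L4 and for 31 to WTR, when 23.6% and 23.9% of all genes had such an interval. Without rpn-6.2 this held for 27 and 30 of 32 subunit genes, when among all genes with as many reads in the reference library (62.0 to 276 reads in wild-type L4, 44.0 to 179 in WTR), which have narrower intervals, it held for 46.9% and 47.8%. The median ratio of these 32 subunit genes was -0.87 to wild-type L4 and -1.02 to WTR, whereas that of the genes with as many reads was -0.48 and -0.51. Those ranges were set on the reference reads, which alone favours lower ratios in the other library.

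**Figure D2:**
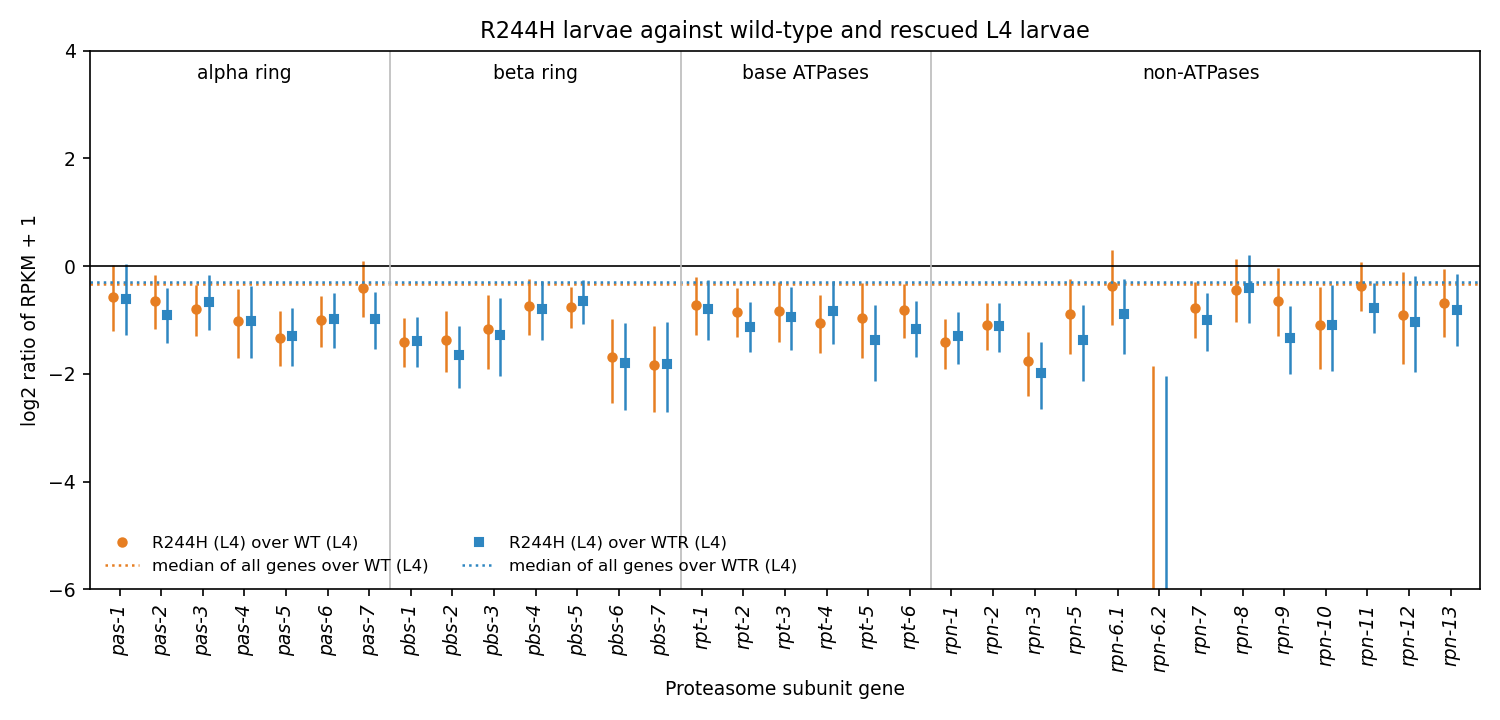
Log2 ratio of RPKM + 1 of each subunit gene in R244H over wild-type L4 (circles) and over WTR (squares), with 95% counting intervals as vertical lines and the median of all genes as dotted lines. All points lie below 0, the intervals of rpn-8 and pas-1 reach above 0 in both comparisons, and for rpn-6.2, with 0 reads in R244H, the interval is drawn without a point.

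Markers of other tissues moved in the same comparison. All 13 germline markers checked (among them *gld-1*, *pgl-1* and *glh-1*) were at least 2-fold lower, with summed levels of 124 RPKM in R244H, against 1353 RPKM in WTR and 1125 RPKM in wild-type L4, and none was at 0 in R244H. The 35 sperm genes, the major sperm protein family and the spch genes, summed to 117 RPKM in R244H, against 8523 RPKM in WTR and 6453 RPKM in wild-type L4, and 20 of them had 0 reads in R244H. Their part in the lower proteasome levels was not tested. The summed level of 6 intestine markers was 10308 RPKM in R244H, against 5555 RPKM in WTR and 6013 RPKM in wild-type L4. The protease gene *asp-1* made up 8037 RPKM of the sum in R244H, while the ratios of *act-5* (-0.06 to wild-type L4 and 0.24 to WTR) and *ifb-2* (0.03 and 0.05) were near 0. The summed level of 5 body wall muscle markers was 3237 RPKM in R244H, against 2526 RPKM in WTR and 3968 RPKM in wild-type L4. The sums of 4 hypodermis markers were 1025 RPKM in R244H, against 450 RPKM in WTR and 875 RPKM in wild-type L4, and those of 5 neuron markers were 439 RPKM in R244H, against 248 RPKM in WTR and 266 RPKM in wild-type L4. The gene *sqt-3* made up 810 RPKM of the hypodermis sum in R244H, while *lin-26* had ratios of -0.90 to wild-type L4 and -1.70 to WTR. The gene *snb-1* made up 288 RPKM of the neuron sum in R244H. Of the 5 neuron markers, 1 was below 0 to wild-type L4 and 2 to WTR, among them *ric-4* at -0.36 and -0.55.

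In *gk165* most subunit genes were lower as well, but some were not. Over the 33 genes the ratio had a median of -0.91 to wild-type L2 and -1.12 to wild-type L3, whereas the median of all genes was 0.18 and -0.30, so the subunit genes lay 1.10 and 0.82 below the bulk of genes. Their levels summed to 2627 RPKM in *gk165*, against 4134 RPKM in wild-type L2 and 4832 RPKM in wild-type L3. Among the 32 subunit genes that could be counted (rpn-6.2 was below 5 RPKM in all 3 libraries), 16 were at least 2-fold lower than in wild-type L2, when 27.8% of the 10551 genes tested were, and 18 were lower than in wild-type L3, when 34.7% of 10977 genes were. At least 2-fold higher were 2 genes to wild-type L2, rpn-12 and rpn-8, when 34.2% of all genes were, and 1 gene to wild-type L3, rpn-8, when 23.1% were. The interval lay below no change for 17 genes to wild-type L2 and 24 to wild-type L3, when 12.7% and 20.7% of all genes had such an interval. Among genes with as many reads in the reference library (6 to 61 reads in wild-type L2, 41 to 176 in wild-type L3) the shares were 25.3% and 58.2%. The median ratio of the 32 subunit genes was -0.97 to wild-type L2 and -1.09 to wild-type L3, whereas that of the genes with as many reads was -0.49 and -0.97, so to wild-type L3 the subunit genes lay close to genes of their own depth, under the same caution about that choice.

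**Figure D3:**
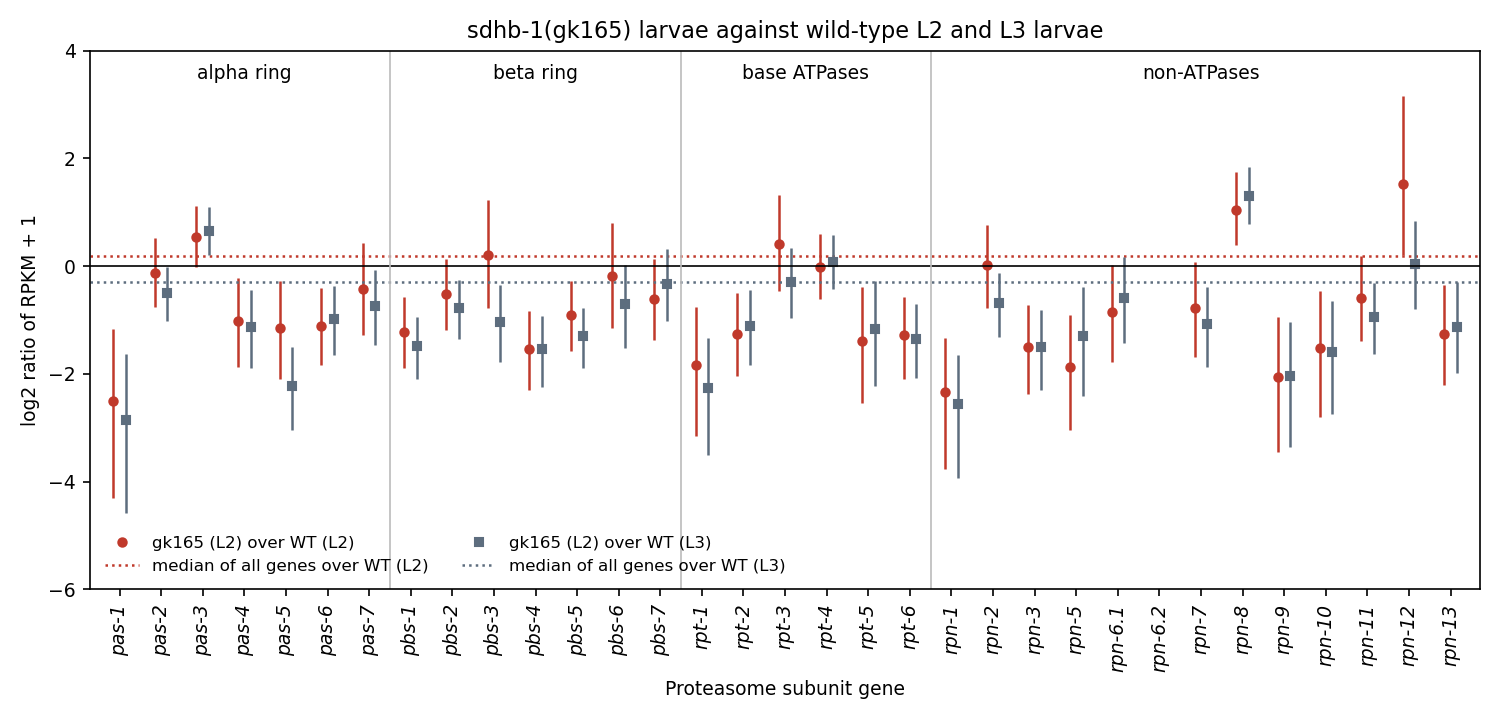
Log2 ratio of RPKM + 1 of each subunit gene in *gk165* over wild-type L2 (circles) and over wild-type L3 (squares), with 95% counting intervals as vertical lines and the median of all genes as dotted lines. Most points lie below 0, rpn-8 lies above 0 with its whole interval in both comparisons, and rpn-6.2, which had 0 reads in *gk165* and at most 4 in the references, is not drawn.

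The concentration of *gk165* reads at the 3′ ends touches the *gk165* values as a set, though it was not seen in every subunit gene. The 3′-most listed exon makes up 33.2% of the subunit genes' listed length. Its share of their reads, 63.2% in *gk165*, was 36.6% in R244H, against 39.1% in WTR and 39.2% in wild-type L4. Over all genes the pooled shares were 62.0% in *gk165*, 34.0% in R244H, and 34.3 to 43.0% in the 4 reference libraries. In *gk165* the share was higher than in both references for 22 of the 32 subunit genes with reads in every library. That count was not made for all genes. The median share of these 32 was 61.25% in *gk165*, 46.1% in wild-type L2 and 40.4% in wild-type L3. Over the 1925 genes with 10 reads or more in every library it was 56.8%, 39.4% and 35.4%, so the shift was not particular to the subunit genes. From the 3′-most exon alone the median subunit ratio of *gk165* was -0.35 to wild-type L2 and -0.49 to wild-type L3, and from the other exons it was -1.37 and -1.55, while all genes shifted likewise (medians of 0.73 and 0.29 from the 3′-most exon, -0.49 and -1.10 from the others). The distance between the subunit genes and all genes was -1.08 to wild-type L2 and -0.78 to wild-type L3 from the 3′-most exon, and -0.88 and -0.44 from the others. For R244H the 3′-most exon alone gave medians of -1.06 to wild-type L4 and -1.25 to WTR. The summed markers also moved in *gk165*: muscle 758 RPKM in *gk165*, against 1629 RPKM in wild-type L2 and 2929.5 RPKM in wild-type L3, and hypodermis 483 RPKM in *gk165*, against 3303 RPKM in wild-type L2 and 2696 RPKM in wild-type L3. Intestine markers summed to 5498 RPKM in *gk165*, against 2540 RPKM in wild-type L2 and 5340 RPKM in wild-type L3. The gut-defining GATA factor gene *elt-2* had 0 reads in *gk165*, but only 4 in wild-type L2 and 8 in wild-type L3. Its intervals reached above 0, to 0.35 and 0.24. The protease gene *asp-1* made up 4895 RPKM of the sum in *gk165*. The intestinal actin gene *act-5* had 113 RPKM in *gk165*, against 474 RPKM in wild-type L2 and 1077 RPKM in wild-type L3, and the list's median ratio was -0.09 and -1.0. Neuron markers summed to 823 RPKM in *gk165*, against 579 RPKM in wild-type L2 and 599.7 RPKM in wild-type L3. The synaptobrevin gene *snb-1* carried that sum, with 610.0 RPKM in *gk165*, against 261 RPKM in wild-type L2 and 274 RPKM in wild-type L3, whereas the list's median ratio was -1.05 and -0.74. Germline markers summed to 77.2 RPKM in *gk165*, against 49.1 RPKM in wild-type L2 and 122 RPKM in wild-type L3. The part of these shifts in the proteasome values was not tested.

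**Figure D4:**
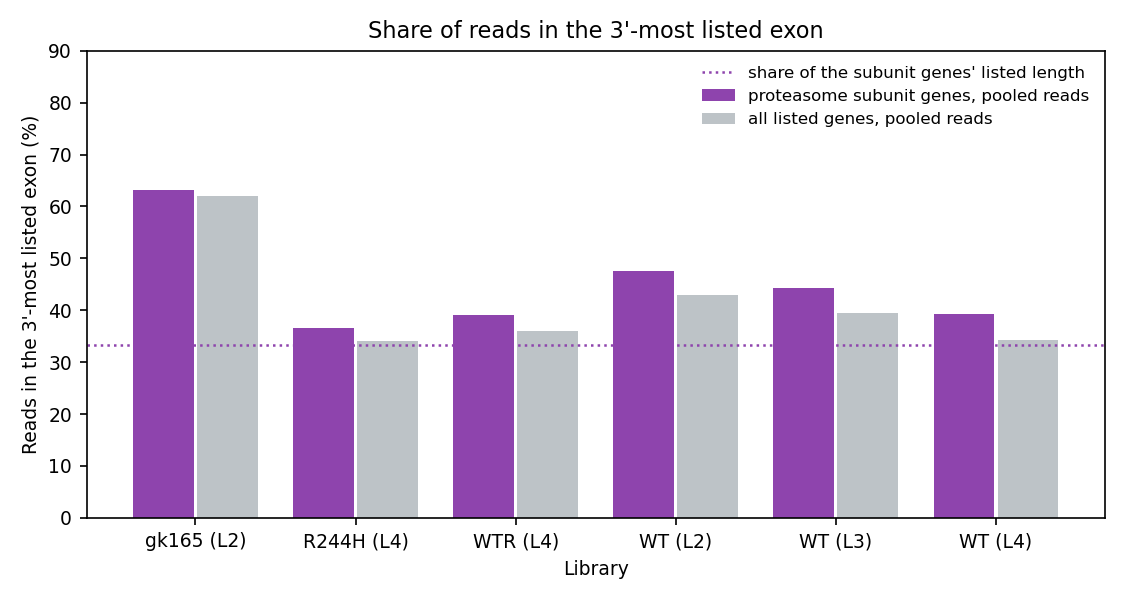
Percent of reads in the 3′-most listed exon, pooled over the subunit genes (purple) and over all listed genes (grey), in each library, with the share of the subunit genes' listed length in that exon as a dotted line. The *gk165* library stands highest for both sets, at 63.2% and 62.0%.

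The genes of the alpha ring are the outer wall and gate of the barrel. Lowest in *gk165* was *pas-1*, with 19.1 RPKM in *gk165*, against 114 RPKM in wild-type L2 and 144 RPKM in wild-type L3, and 83.7 RPKM in R244H, against 128 RPKM in WTR and 124 RPKM in wild-type L4. Only 5 reads stand behind the *gk165* value. Its ratio in *gk165* was -2.51 (-4.31 to -1.16) to wild-type L2 and -2.85 (-4.58 to -1.63) to wild-type L3, whereas in R244H the intervals reached above 0. The gene *pas-5* had 72.0 RPKM in *gk165*, against 161 RPKM in wild-type L2 and 338 RPKM in wild-type L3, and 120 RPKM in R244H, against 294 RPKM in WTR and 301 RPKM in wild-type L4. It was at least 2-fold below both references in each mutant, with *gk165* ratios of -1.15 (-2.10 to -0.27) to wild-type L2 and -2.22 (-3.05 to -1.51) to wild-type L3, and R244H ratios of -1.33 (-1.86 to -0.84) to wild-type L4 and -1.29 (-1.85 to -0.78) to WTR. The same held for *pas-4*, which had 84.7 RPKM in *gk165*, against 173 RPKM in wild-type L2 and 186 RPKM in wild-type L3, and 76.9 RPKM in R244H, against 156 RPKM in WTR and 158 RPKM in wild-type L4. Its R244H ratio to WTR was -1.01 (-1.71 to -0.36), just past 2-fold. An exception was *pas-3*, the highest subunit gene in *gk165*, with 262 RPKM in *gk165*, against 181 RPKM in wild-type L2 and 166 RPKM in wild-type L3. It overlaps *use-1* on the opposite strand, and the part of that overlap in these levels was not tested. In R244H *pas-3* had 122 RPKM, against 194 RPKM in WTR and 213 RPKM in wild-type L4. Its *gk165* ratio was 0.54 (-0.02 to 1.11) to wild-type L2 and 0.66 (0.21 to 1.11) to wild-type L3, but 84.2% of its *gk165* reads lay in its 3′-most exon, against 42.0% in wild-type L2 and 55.7% in wild-type L3, and without that exon the ratios were -1.33 and -0.82. Among the others, *pas-7* had 87.6 RPKM in *gk165*, against 117 RPKM in wild-type L2 and 147 RPKM in wild-type L3, and 111 RPKM in R244H, against 220 RPKM in WTR and 148 RPKM in wild-type L4. Its R244H ratio was -0.41 (-0.95 to 0.10) to wild-type L4 and -0.98 (-1.53 to -0.47) to WTR. For *pas-6* all 4 ratios, between -1.10 and -0.98, had intervals below 0. For *pas-2* they ran from -0.12 (*gk165* to wild-type L2, interval reaching above 0) to -0.91 (R244H to WTR).

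The beta ring was the part with the lowest median in R244H, -1.37 to wild-type L4 and -1.39 to WTR, and all 7 genes had intervals below 0 there in both comparisons. The numbering of *pbs-1*, *pbs-2* and *pbs-5* is that of the beta subunits with proteolytic sites. The gene *pbs-1* had 135 RPKM in *gk165*, against 315 RPKM in wild-type L2 and 380.0 RPKM in wild-type L3, and 157 RPKM in R244H, against 412 RPKM in WTR and 415 RPKM in wild-type L4. It was the highest subunit gene in WTR, wild-type L3 and wild-type L4, and it was more than 2-fold lower in each mutant than in both references. Its ratios were -1.22 (-1.90 to -0.58) to wild-type L2 and -1.49 (-2.09 to -0.94) to wild-type L3 in *gk165*, and -1.40 (-1.87 to -0.97) to wild-type L4 and -1.39 (-1.87 to -0.94) to WTR in R244H. The second, *pbs-2*, had 137 RPKM in *gk165*, against 197 RPKM in wild-type L2 and 235.4 RPKM in wild-type L3, and 83.7 RPKM in R244H, against 264 RPKM in WTR and 217 RPKM in wild-type L4. Its R244H ratio was -1.37 (-1.96 to -0.83) to wild-type L4 and -1.65 (-2.25 to -1.10) to WTR, and its *gk165* ratio was -0.52 (-1.18 to 0.13) to wild-type L2, with an interval that includes 0. For *pbs-5*, which encodes the subunit with the chymotrypsin-like site, the levels were 116 RPKM in *gk165*, against 219 RPKM in wild-type L2 and 288 RPKM in wild-type L3, and 186 RPKM in R244H, against 293 RPKM in WTR and 315 RPKM in wild-type L4. It was the highest subunit gene in R244H, with ratios of -0.76 (-1.15 to -0.39) to wild-type L4 and -0.66 (-1.07 to -0.26) to WTR.

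Of the beta genes without a proteolytic site, *pbs-6* and *pbs-7* were among the lowest ratios in R244H but not in *gk165*. The levels of *pbs-7* were 106 RPKM in *gk165*, against 163 RPKM in wild-type L2 and 134 RPKM in wild-type L3, and 42.9 RPKM in R244H, against 153 RPKM in WTR and 156 RPKM in wild-type L4. In R244H its ratio was -1.84 (-2.72 to -1.11) to wild-type L4 and -1.81 (-2.71 to -1.04) to WTR, and in *gk165* it was -0.61 (-1.38 to 0.14) to wild-type L2 and -0.33 (-1.02 to 0.32) to wild-type L3. It lies on the minus strand of chromosome I, from 8695205 to 8696376, and overlaps K07A12.5 on the same strand. The levels of *pbs-6* were 82.4 RPKM in *gk165*, against 93.1 RPKM in wild-type L2 and 135 RPKM in wild-type L3, and 49.5 RPKM in R244H, against 175 RPKM in WTR and 162 RPKM in wild-type L4. Its R244H ratios were -1.69 (-2.54 to -0.97) to wild-type L4 and -1.80 (-2.67 to -1.05) to WTR, and its *gk165* ratios of -0.17 and -0.70 had intervals that include 0. The pattern of *pbs-4* was the other way round, with 108 RPKM in *gk165*, against 317 RPKM in wild-type L2 and 318 RPKM in wild-type L3, and 134 RPKM in R244H, against 234 RPKM in WTR and 225 RPKM in wild-type L4. Its ratios were -1.54 to both references in *gk165* (-2.30 to -0.84 for wild-type L2), and -0.74 and -0.80 in R244H. The difference between mutants was not tested for any gene. In *pbs-3* the levels were 93.9 RPKM in *gk165*, against 81.2 RPKM in wild-type L2 and 193 RPKM in wild-type L3, and 69.3 RPKM in R244H, against 169 RPKM in WTR and 157 RPKM in wild-type L4. Its *gk165* value thus lay above one reference and below the other, since the references themselves differed, and in R244H its ratios were -1.17 and -1.28.

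The ATPase ring unfolds and threads the substrate into the barrel. In R244H its genes lay close together, with ratios between -1.05 and -0.72 to wild-type L4 and between -1.38 and -0.79 to WTR, and all 6 intervals were below 0 in both comparisons. In *gk165* they ranged from -1.84 to 0.40 to wild-type L2. The level of *rpt-1* was 20.4 RPKM in *gk165*, against 75.4 RPKM in wild-type L2 and 102 RPKM in wild-type L3, and 63.9 RPKM in R244H, against 112 RPKM in WTR and 106 RPKM in wild-type L4. Its *gk165* ratio was -1.84 (-3.16 to -0.76) to wild-type L2 and -2.27 (-3.50 to -1.34) to wild-type L3, from 9 reads. The genes *rpt-2*, *rpt-5* and *rpt-6* were also at least 2-fold below both references in *gk165*. For *rpt-2* the levels were 54.9 RPKM in *gk165*, against 132 RPKM in wild-type L2 and 120.4 RPKM in wild-type L3, and 90.4 RPKM in R244H, against 198 RPKM in WTR and 164 RPKM in wild-type L4. For *rpt-5* they were 29.1 RPKM in *gk165*, against 77.8 RPKM in wild-type L2 and 66.2 RPKM in wild-type L3, and 39.4 RPKM in R244H, against 104 RPKM in WTR and 77.9 RPKM in wild-type L4. For *rpt-6* they were 58.5 RPKM in *gk165*, against 144 RPKM in wild-type L2 and 150.1 RPKM in wild-type L3, and 76.2 RPKM in R244H, against 171 RPKM in WTR and 136 RPKM in wild-type L4. From all listed exons each of these 3 genes was lowest in *gk165*, next lowest in R244H and higher in all 4 reference libraries. In the 3′-most exon, reads in *gk165*, R244H and wild-type L2 were 10.5, 13.5 and 19 for *rpt-2* and 8, 7 and 8 for *rpt-5*. For *rpt-6* they were 20, 22 and 24.5. Scaled to library size, *gk165* lay above R244H in that exon for these 3 genes. There *rpt-5* and *rpt-6* were not 2-fold below wild-type L2. The order from all listed exons did not hold for *rpt-4* and *rpt-3*. The level of *rpt-4* was 136 RPKM in *gk165*, against 137 RPKM in wild-type L2 and 129 RPKM in wild-type L3, and 68.4 RPKM in R244H, against 123 RPKM in WTR and 143 RPKM in wild-type L4. Its *gk165* ratio of -0.01 (-0.62 to 0.60) to wild-type L2 came from 0.90 in the 3′-most exon and -0.67 in the others. For *rpt-3* the *gk165* ratios were 0.40 and -0.29 with intervals that include 0, and its R244H ratios were -0.82 and -0.94.

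Among the non-ATPase subunits are the large scaffolds *rpn-1* and *rpn-2*, which hold the base together and dock ubiquitin-binding factors. The level of *rpn-1* was 9.12 RPKM in *gk165*, against 50.1 RPKM in wild-type L2 and 58.8 RPKM in wild-type L3, and 38.6 RPKM in R244H, against 96.5 RPKM in WTR and 104 RPKM in wild-type L4. It was the lowest subunit gene in *gk165* after rpn-6.2, with ratios of -2.34 (-3.77 to -1.33) to wild-type L2 and -2.56 (-3.94 to -1.66) to wild-type L3 from 8 reads, and of -1.41 (-1.91 to -0.99) to wild-type L4 and -1.30 (-1.82 to -0.85) to WTR in R244H. For *rpn-2* the levels were 39.6 RPKM in *gk165*, against 39.3 RPKM in wild-type L2 and 64.3 RPKM in wild-type L3, and 47.5 RPKM in R244H, against 104 RPKM in WTR and 102 RPKM in wild-type L4. Its R244H ratios were -1.09 (-1.56 to -0.69) to wild-type L4 and -1.11 (-1.59 to -0.68) to WTR, and its *gk165* ratio to wild-type L2 was 0.01 (-0.78 to 0.77).

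The ubiquitin receptors of the particle are *rpn-10* and *rpn-13*. The level of *rpn-10* was 29.4 RPKM in *gk165*, against 85.7 RPKM in wild-type L2 and 90.5 RPKM in wild-type L3, and 39.4 RPKM in R244H, against 84.8 RPKM in WTR and 85.3 RPKM in wild-type L4. The 4 reference libraries lay between 84.8 and 90.5 RPKM, and both mutants were more than 2-fold below them, with ratios of -1.51 (-2.79 to -0.46) to wild-type L2 in *gk165* and -1.09 (-1.92 to -0.38) to wild-type L4 in R244H. The level of *rpn-13* was 40.3 RPKM in *gk165*, against 97.3 RPKM in wild-type L2 and 89.0 RPKM in wild-type L3, and 52.3 RPKM in R244H, against 92.1 RPKM in WTR and 84.4 RPKM in wild-type L4. Its ratio was -1.25 (-2.21 to -0.34) to wild-type L2 in *gk165* and -0.68 (-1.32 to -0.05) to wild-type L4 in R244H. The deubiquitinase of the lid, *rpn-11*, which cuts ubiquitin chains off the substrate, had 85.3 RPKM in *gk165*, against 129 RPKM in wild-type L2 and 164 RPKM in wild-type L3, and 132 RPKM in R244H, against 226 RPKM in WTR and 170.1 RPKM in wild-type L4. It had one of the smallest differences in R244H to wild-type L4, -0.36 (-0.83 to 0.08), and -0.77 (-1.25 to -0.31) to WTR.

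Its partner in the lid, *rpn-8*, was the one subunit gene at least 2-fold higher in a mutant than in both references. It had 202 RPKM in *gk165*, against 97.7 RPKM in wild-type L2 and 81.5 RPKM in wild-type L3, and 72.5 RPKM in R244H, against 96.3 RPKM in WTR and 98.3 RPKM in wild-type L4. Its *gk165* ratios were 1.04 (0.40 to 1.74) and 1.30 (0.78 to 1.85), while 18.4% of the 11290 genes tested were at least 2-fold higher in *gk165* than in both references. Of its *gk165* reads 68.1% lay in the 3′-most exon, against 39.3% in wild-type L2 and 42.0% in wild-type L3, and without that exon the ratios were 0.12 and 0.44. The gene lies on the plus strand of chromosome I, from 4175319 to 4177271, with 7 listed exons and no overlapping gene. In R244H it was the subunit gene nearest to WTR, with ratios of -0.43 (-1.04 to 0.13) to wild-type L4 and -0.40 (-1.05 to 0.21) to WTR.

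The remaining lid genes encode the scaffold subunits around *rpn-11*. The lowest R244H ratio among them was that of *rpn-3*, which had 37.1 RPKM in *gk165*, against 107 RPKM in wild-type L2 and 106 RPKM in wild-type L3, and 38.5 RPKM in R244H, against 155 RPKM in WTR and 133 RPKM in wild-type L4. Its ratios were -1.50 to both references in *gk165* (-2.38 to -0.73 for wild-type L2), and -1.77 (-2.42 to -1.22) to wild-type L4 and -1.98 (-2.64 to -1.42) to WTR in R244H. It lies on the plus strand of chromosome III, from 8447353 to 8449346, with 4 listed exons and no overlapping gene. The level of *rpn-9* was 19.3 RPKM in *gk165*, against 83.3 RPKM in wild-type L2 and 82.7 RPKM in wild-type L3, and 49.5 RPKM in R244H, against 127 RPKM in WTR and 77.6 RPKM in wild-type L4. In *gk165* its ratio was -2.05 (-3.45 to -0.94) to wild-type L2, and in R244H it was -1.34 to WTR but -0.64 to wild-type L4, and WTR had the highest level of all libraries. For *rpn-5* the levels were 24.1 RPKM in *gk165*, against 91.1 RPKM in wild-type L2 and 60.8 RPKM in wild-type L3, and 35.5 RPKM in R244H, against 93.8 RPKM in WTR and 66.5 RPKM in wild-type L4. It was the lowest of the subunit genes in R244H after rpn-6.2. The level of *rpn-12* was 85.9 RPKM in *gk165*, against 29.2 RPKM in wild-type L2 and 83.2 RPKM in wild-type L3, and 46.2 RPKM in R244H, against 95.2 RPKM in WTR and 87.6 RPKM in wild-type L4. Its *gk165* ratio of 1.53 (0.20 to 3.16) to wild-type L2 rested on 6 reads in wild-type L2, the one library that stood apart besides R244H, and the ratio to wild-type L3 was 0.05 (-0.79 to 0.84). For *rpn-7* the *gk165* ratios were -0.77 to wild-type L2 and -1.07 to wild-type L3, and the R244H ratio -0.78 to wild-type L4.

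The paralogues *rpn-6.1* and *rpn-6.2* encode versions of one lid subunit that clamps the cap to the barrel. The level of *rpn-6.1* was 47.1 RPKM in *gk165*, against 85.5 RPKM in wild-type L2 and 71.4 RPKM in wild-type L3, and 45.5 RPKM in R244H, against 84.7 RPKM in WTR and 58.7 RPKM in wild-type L4. Its ratios were -0.85 (-1.78 to 0.02) to wild-type L2 in *gk165*, and -0.36 (-1.09 to 0.29) to wild-type L4 and -0.88 (-1.62 to -0.23) to WTR in R244H. The second copy, *rpn-6.2*, is on the minus strand of chromosome III, from 8999828 to 9001498, with 5 listed exons and no overlapping gene. It had 0 RPKM in *gk165*, against 0 RPKM in wild-type L2 and 4.86 RPKM in wild-type L3, and 0 RPKM in R244H, against 28.5 RPKM in WTR and 24.6 RPKM in wild-type L4. The reads behind these were 0 in *gk165*, 0 in R244H, 22 in WTR, 0 in wild-type L2, 4 in wild-type L3 and 29 in wild-type L4. With 3 reads set for the 0 reads of R244H and the reference reads taken as counted, *rpn-6.2* was 4.73-fold lower than in wild-type L4. Its bound relative to WTR was 5.50-fold. The counting intervals, which also cover error in the reference reads, had upper ends of -1.85 to wild-type L4 and -2.04 to WTR, and so allow smaller folds. No fold is given for *gk165*. The medians above are the same with *rpn-6.2* at these bounds. It was the one subunit gene with nearly all of its reads in the 2 libraries in which sperm genes were high, with summed sperm marker levels of 67.0 RPKM in *gk165*, 117 RPKM in R244H, 8523 RPKM in WTR, 0 RPKM in wild-type L2, 19.4 RPKM in wild-type L3 and 6453 RPKM in wild-type L4. The part of sperm content in this value was not tested.

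Taking both references of each mutant, 15 of the 32 countable genes lay 2-fold or more below wild-type L2 and wild-type L3 in *gk165*, when 22.2% of 11290 genes were. In R244H 12 of 33 lay 2-fold or more below wild-type L4 and WTR, when 28.1% of 12171 genes were, and 0 were higher, when 13.0% were. The interval lay below both references for 17 genes in *gk165*, when 10.2% of all genes had this, and for 28 in R244H, when 18.0% had it. In both mutants 6 of the 32 countable genes were at least 2-fold below both of their references, when 5.03% of 10743 genes were: the alpha genes *pas-4* and *pas-5*, the catalytic beta gene *pbs-1*, the scaffold *rpn-1*, the lid gene *rpn-3* and the ubiquitin receptor *rpn-10*. By intervals it was 16 genes, when 3.06% of all genes had this, and they add *pas-6*, *pbs-4*, *pbs-5*, *rpn-5*, *rpn-9*, *rpn-13*, *rpt-1*, *rpt-2*, *rpt-5* and *rpt-6*. The *gk165* and R244H libraries have no reference in common in these counts, and no link between the mutants is read from the overlap. The counts use all listed exons. In the 3′-most exon *pas-4* had 11 reads in *gk165* and 9 in wild-type L2, and *pas-5* had 11 and 11. Reads there were 24.5 and 44.5 for *pbs-1*, 2.5 and 7.5 for *rpn-1*, 15.5 and 21 for *rpn-3*, and 6 and 13.5 for *rpn-10*. Scaled to library size, *pas-4*, *pas-5* and *rpn-3* were not 2-fold below wild-type L2 in that exon, and the others were. Across 32 genes the ratios of *gk165* to wild-type L2 and of R244H to wild-type L4 had a Pearson r of 0.06 and a Spearman rho of 0.00, a description across genes, which are not independent replicates. The *gk165* levels rest on a median of 22.3 reads per gene. The part of counting error and of the 3′ shift in these coefficients was not tested.

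The levels also spread more widely among the subunit genes in *gk165*. Without rpn-6.2 the SD of the log2 levels was 1.11 in *gk165*, 0.68 in R244H, 0.62 in WTR, 0.79 in wild-type L2, 0.76 in wild-type L3 and 0.68 in wild-type L4. The highest gene was 28.8 times the lowest in *gk165*, against 10.9 times in wild-type L2 and 6.46 times in wild-type L3, and 5.23 times in R244H, against 4.87 times in WTR and 7.07 times in wild-type L4. In *gk165* the highest gene was *pas-3*, with 84.2% of its reads in the 3′-most exon, and the lowest was *rpn-1*, with 8 reads. Median reads per gene were also lowest in *gk165*, 22.3. The part of counting error and of the 3′ shift in this spread was not tested. No spread of other genes is given, so it is not read as particular to the subunit genes. The rank order of the 32 genes in WTR and wild-type L4 had a Spearman rho of 0.94, while *gk165* had 0.56 to 0.65 with the other 5 libraries.

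The subunit genes differed little between WTR and wild-type L4. The median ratio of WTR to wild-type L4 was 0.11, when that of all genes was 0.00. None (0) of the 33 genes was at least 2-fold higher or lower, when 9.57% and 11.6% of the 11347 genes tested were. The interval lay above no change for 5 genes (*pas-7*, *rpn-5*, *rpn-6.1*, *rpn-9* and *rpn-11*), when 6.2% of all genes had this, and below no change for 0, when 7.07% had it. The highest of these was *rpn-9*, at 0.70 (0.28 to 1.13). Across the wild-type stages the median ratio was 0.23 for L3 over L2, when that of all genes was 0.43, and 0.13 for L4 over L3, when that of all genes was 0.10. The sign of the L3 over L2 median depends on the scaling, so no direction is given. At least 2-fold higher in L3 than in L2 were 3 of the 32 subunit genes tested, when 29.2% of 10622 genes were, and 0 were lower, when 10% were. Centring on the median of all genes changes those shares to 20.7% and 15.8%, with 1 subunit gene then at least 2-fold lower. In L4 over L3 it was 1 of the 33 genes, rpn-6.2, when 26.0% of 12038 genes were higher, and 0 were lower, when 20.4% were. The 3 genes higher in L3 were *pas-5*, with 161, 338 and 301 RPKM in wild-type L2, L3 and L4, *pbs-3*, with 81.2, 193 and 157 RPKM, and *rpn-12*, with 29.2, 83.2 and 87.6 RPKM at the same stages. Each had its low value at L2. The scaffold *rpn-1* had 50.1, 58.8 and 104 RPKM in wild-type L2, L3 and L4, and *rpn-2* had 39.3, 64.3 and 102 RPKM, so both were highest at L4.

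Genes that work with the proteasome had medians nearer to those of all genes than the subunits had. Of 23 ubiquitin and proteasome partner genes on the list, 22 were in the table (psme-3 was not listed). In *gk165* the median ratio to wild-type L2 was -0.91 for the subunits and 0.08 for the partners, and that to wild-type L3 was -1.12 for the subunits and -0.39 for the partners. In R244H the median ratio to wild-type L4 was -0.89 for the subunits and -0.56 for the partners, and that to WTR was -1.03 for the subunits and -0.77 for the partners. The difference between the lists was not tested. Of the partners, at least 2-fold lower were 1 gene (3 higher) in *gk165* to wild-type L2, 5 (2 higher) to wild-type L3, and in R244H 6 (0 higher) to wild-type L4 and 7 (0 higher) to WTR, beside the shares of all genes given above. The most strongly expressed was *ubq-2*, which encodes ubiquitin fused to a ribosomal protein, with 4131 RPKM in *gk165*, against 3801 RPKM in wild-type L2 and 4604 RPKM in wild-type L3, and 2932 RPKM in R244H, against 3459 RPKM in WTR and 3367 RPKM in wild-type L4. The polyubiquitin gene *ubq-1* had 249 RPKM in *gk165*, against 232 RPKM in wild-type L2 and 234.6 RPKM in wild-type L3, and 395 RPKM in R244H, against 406 RPKM in WTR and 390.4 RPKM in wild-type L4. Both ubiquitin genes thus had small ratios in each mutant, between -0.24 and 0.12. The intervals of *ubq-1* included 0 throughout. Those of *ubq-2* lay below 0 in *gk165* to wild-type L3 (-0.30 to -0.01) and in R244H to wild-type L4 (-0.35 to -0.06) and WTR (-0.39 to -0.08). Its interval in *gk165* to wild-type L2 included 0.

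The small lid subunit *dss-1*, which the naming rule does not reach, had 326 RPKM in *gk165*, against 175 RPKM in wild-type L2 and 257 RPKM in wild-type L3, and 117 RPKM in R244H, against 213 RPKM in WTR and 212 RPKM in wild-type L4. Its *gk165* ratio was 0.90 (0.16 to 1.68) to wild-type L2 and 0.34 (-0.19 to 0.87) to wild-type L3, where the interval includes 0. In R244H *dss-1* was lower, at -0.85 (-1.54 to -0.22) to wild-type L4 and -0.86 (-1.58 to -0.18) to WTR. The segregase CDC-48, which pulls ubiquitinated proteins out of complexes before degradation, has 2 genes. The level of *cdc-48.2* was 19.7 RPKM in *gk165*, against 100.2 RPKM in wild-type L2 and 119 RPKM in wild-type L3, and 78.3 RPKM in R244H, against 175 RPKM in WTR and 190.3 RPKM in wild-type L4, with a *gk165* ratio of -2.29 (-3.30 to -1.49) to wild-type L2. Its paralogue *cdc-48.1* had 77.3 RPKM in *gk165*, against 79.5 RPKM in wild-type L2 and 98.2 RPKM in wild-type L3, and 107 RPKM in R244H, against 205 RPKM in WTR and 186 RPKM in wild-type L4. In *gk165* the copies differed from each other, and in R244H both were lower, at -0.79 and -1.27 to wild-type L4. The proteasome-bound deubiquitinases *ubh-4* and *usp-14* had R244H ratios of -1.41 and -1.20 to wild-type L4, with intervals below 0. The transcription factor *skn-1*, known in *C. elegans* to raise proteasome gene expression when the proteasome is impaired, had 35.1 RPKM in *gk165*, against 48.4 RPKM in wild-type L2 and 51.1 RPKM in wild-type L3, and 68.6 RPKM in R244H, against 61.0 RPKM in WTR and 43.4 RPKM in wild-type L4. Its R244H ratio was 0.65 (0.24 to 1.08) to wild-type L4 and 0.17 (-0.26 to 0.60) to WTR, and the interval to WTR includes 0. The genes that process SKN-1 for this response, *ddi-1* and *png-1*, had at most 27.6 RPKM in any library, and of their 8 ratios 2, those of *ddi-1* in R244H, had intervals below 0.

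Other large assemblies of the cytosol gave a scale for these medians. The 8 genes of the CCT chaperonin, which folds actin and tubulin, had medians of -1.66 to wild-type L2 and -1.61 to wild-type L3 in *gk165*, and -0.98 to wild-type L4 and -0.89 to WTR in R244H. For the 11 genes of eIF3, a translation initiation complex that shares its subunit architecture with the proteasome lid, the medians were -0.67 to wild-type L2 and -1.29 to wild-type L3 in *gk165*, and -1.12 to wild-type L4 and -0.98 to WTR in R244H. The COP9 signalosome, the third complex of that architecture, had medians over 6 genes of -0.53 to wild-type L2 and -0.33 to wild-type L3 in *gk165*, and -1.15 to wild-type L4 and -0.90 to WTR in R244H, from few reads. Medians below those of all genes were thus also seen in these complexes. The 78 cytosolic ribosomal protein genes went apart from these, with medians of 0.41 to wild-type L2 and 0.25 to wild-type L3 in *gk165*, and -0.23 to wild-type L4 and -0.28 to WTR in R244H, near or above the medians of all genes.

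**Figure D5:**
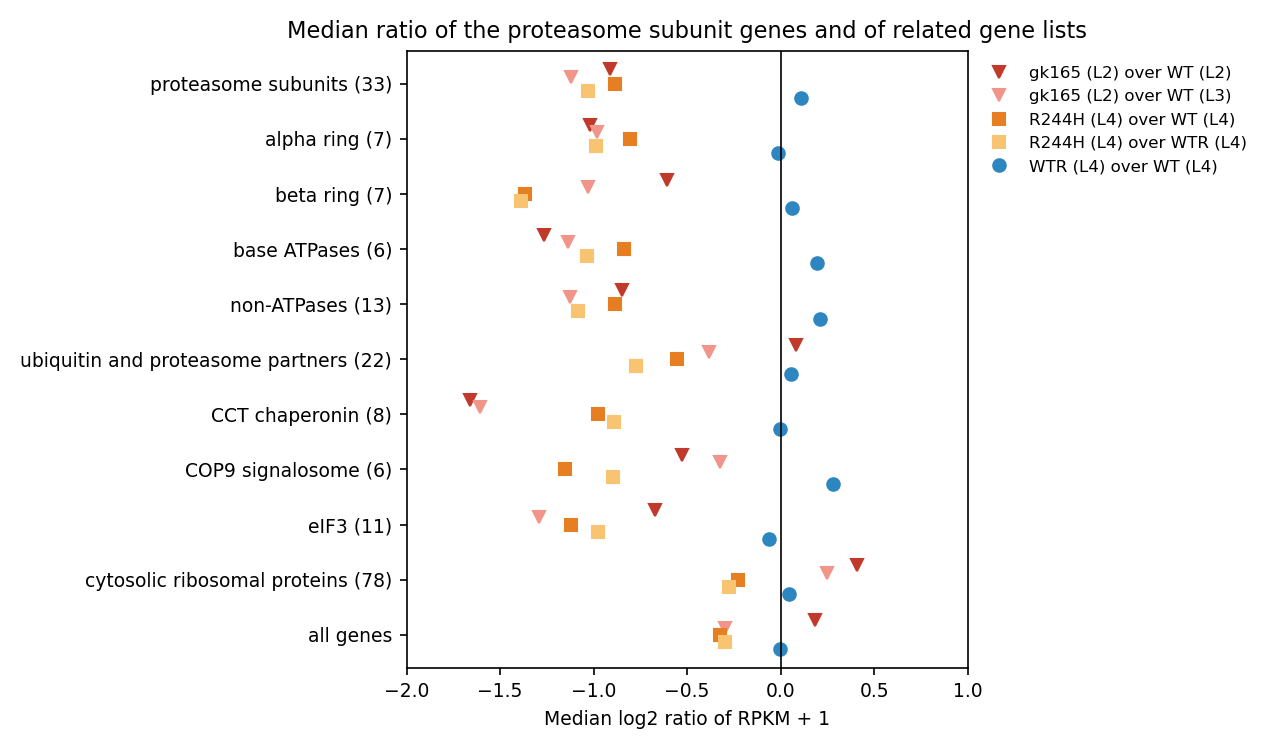
Median log2 ratio of RPKM + 1 of the subunit genes, the 4 parts of the particle, related gene lists (number of listed genes in brackets) and all genes, with 1 symbol per comparison. In both mutants the subunit genes, the CCT chaperonin and eIF3 lie to the left of all genes, the ribosomal protein genes do not, and WTR over wild-type L4 lies near 0 throughout.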

How the data were processed

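Whole worms of 6 groups were measured by directional polyA RNA-seq, 1 library each. Per the paper's methods and the submitters' processing notes, the authors trimmed the reads (Trim Galore 0.4.1, cutadapt 1.14), aligned them with TopHat2 2.1.0 (Bowtie2) to WBcel235, annotated by Ensembl release 94, ran featureCounts over merged exons, and normalized them with edgeR 3.26.8. The authors deposited log2 RPKM values per merged exon, which contain an offset of 0.54 CPM. The filter on exons and the use of strand in counting are not given in the sources used here, and genes outside the table are not analysed here.

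Reads were recovered from the steps in the deposited values: all 236867 non-zero values lay on hundredths of a read (tolerance 0.0001 reads), and 54.0% were whole, since reads shared by exons are counted in parts. For each gene the reads were summed over its listed exons and divided by listed length and by the authors' effective library size, without the offset. A log2 ratio was taken after a pseudocount of 1 RPKM. Genes with 5 RPKM or more in either library were counted, the remaining medians being over all listed members. Intervals are exact binomial intervals of the summed reads at 95%. With 1 library per group no test between groups was possible and none was made, and edgeR was not used for the values here.

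The members follow from the naming rule. Given in full were, in each mutant comparison, the 3 members with the lowest and the 3 with the highest ratio among those with more than 3 reads in both libraries, members at least 2-fold away in 1 direction from both references, pbs-1, pbs-2, pbs-5, rpn-6.1 and rpn-6.2. Other genes came from lists: ubiquitin and proteasome partners, COP9 signalosome, eIF3, CCT chaperonin, cytosolic ribosomal proteins, and germline, sperm, intestine, muscle, hypodermis and neuron markers. The members and lists were chosen with earlier results of these data known. Overlaps came from Ensembl release 115. The alternatives were pseudocounts of 0.1 and 5 RPKM, centring on the median of all genes, the mean over exons of the deposited values, the highest exon only, members with 5 RPKM or more on average, a 1.5-fold threshold and, chosen after seeing the data, the 3′-most exon only, all exons but that one, and scaling to the total of listed reads. The scripts were tested on simulated data. The tools were scipy 1.17.1, pandas 2.3.3, matplotlib 3.10.9 and numpy 2.4.6 under Python 3.11.15.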

Additional observations from a re-analysis of the deposited data

How the results depend on the processing

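Each result was recomputed under the alternatives listed above. Centring on the median of all genes gave subunit medians of -1.10 (*gk165* to wild-type L2), -0.82 (*gk165* to wild-type L3), -0.56 (R244H to wild-type L4), -0.73 (R244H to WTR), -0.21 (L3 to L2, the sign turned) and 0.024 (L4 to L3). Then 1 gene was at least 2-fold higher in *gk165* to wild-type L2, when 31.4% of all genes were. In R244H 8 were lower to wild-type L4 and 10 to WTR, when 27.5% and 29.2% of all genes were, so these counts were near the shares of all genes. Lower than both were 7, for which no share of all genes is given. The 3′-most exon alone gave medians of -0.35 (wild-type L2) and -0.49 (wild-type L3) in *gk165*, -1.06 (wild-type L4) and -1.25 (WTR) in R244H. It gave 0.23 for WTR to wild-type L4, 0.088 for L3 to L2 and -0.037 for L4 to L3 (the sign turned). In that exon 4 and 3 genes were higher in *gk165* to wild-type L2 and L3, when 47.2% and 35.5% of all genes were. To wild-type L3 10 were lower, when 29.1% of all genes were, so this count was near the share of all genes. Lower than both references were 8, for which no share of all genes is given. The gene *rpn-11* was at 0.046 in *gk165* to wild-type L3, against -0.94 from all exons. Without that exon the medians were -1.37 and -1.55 in *gk165*, 0.23 for WTR to wild-type L4 and 0.20 for L4 to L3. Then 0 genes were higher in *gk165* to wild-type L3, when 12.9% of all genes were, and *pas-3* was at -0.82 there. Scaling to total listed reads gave -1.23 and 1 higher gene for *gk165* to wild-type L2, when 28.8% of all genes were higher, and -0.13 for L3 to L2 (the sign turned). The mean over exons gave -1.27 for *gk165* to wild-type L3 and 0.080 for L3 to L2, a pseudocount of 5 RPKM gave -0.999 for *gk165* to wild-type L3, and the highest exon gave 0.18 for WTR to wild-type L4, 0.0083 for L4 to L3 and 0.046 for *rpt-1* in R244H to WTR, against -0.79 from all exons. At 1.5-fold, 2 genes were higher in *gk165* to wild-type L3, and 28 lower in R244H to wild-type L4, 32 to WTR and 28 to both. No share of all genes at 1.5-fold is given, so these counts are not read as particular to the subunit genes. The cause of the changes between alternatives was not tested. The medians of both mutants stayed below 0 in every alternative run. No paired analysis was possible because each group has 1 library. Depth limits single genes most in *gk165* and wild-type L2, where 3 reads in a gene of median length are 8.82 and 10.5 RPKM, and reads without molecular identifiers are not independent molecules, so the intervals cover counting error only.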
